A study of Mus musculus with 8 samples.

Results

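The late spermatocyte and spermatid genes are 36 mouse genes that are normally active in germ cells between the pachytene stage of meiosis and the formation of sperm. They were chosen by name from the 55421 genes of the RNA-seq count table, and each of the 36 was found there. They were used to ask how far cultured germ cells had moved along the male programme after 2 days of treatment. Some of the 36, such as *Taf7l*, *Tex101* and *Slc25a31*, were already well transcribed without retinoic acid or nutrient restriction, so activity before the pachytene stage is not excluded for them. The cells were primary cultures of undifferentiated spermatogonia (SSC culture), set up from the testes of 6-day-old C57BL/6 X DBA/2 F1 pups and grown with bFGF and GDNF on irradiated CF1 mouse embryonic fibroblasts, so that every library can hold feeder RNA. The 4 treatments had 2 libraries each: complete medium (Veh), complete medium with 100 nM retinoic acid (RA), nutrient restriction (NR), in which 90% of the medium was Earle's Balanced Salt Solution (EBSS) and 10% was complete medium, and both together (NRRA). The cells of every group carried no targeted mutation, and whole cultures were sequenced rather than sorted germ cells.

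Spermatogonia become spermatocytes when retinoic acid and other signals turn on *Stra8* and the early meiotic genes. Recombination and synapsis follow, and at the pachytene stage transcription widens to testis-specific enzymes, chaperones and RNA-binding proteins, many of them relatives or retrocopies of a somatic gene. After the meiotic divisions, round spermatids transcribe the genes of the acrosome, the flagellum and the compacted sperm nucleus, in large part under the transcription factor CREM, and several of these messages are stored and translated later.

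The 36 genes separated into those that all libraries detected and those at the limit of detection. Levels are given as CPM, the count per 1000000 counts of the library total after TMM scaling, and a count of 3, taken as the floor, equals 0.0963 to 0.156 CPM in these libraries of 19261333 to 30023585 counts. In 29 of the 36 genes each of the 8 libraries held at least 1 count, and in 24 genes each library held more than 3. For 5 genes (*Pgk2*, *Prm2*, *Tnp2*, *Odf1* and *Catsper1*) no library exceeded 3 counts. Statistical testing needs enough counts, and 26 of the 36 genes passed the filter while 10 did not: *Acr*, *Acrv1*, *Adam2*, *Adam3*, *Catsper1*, *Odf1*, *Pgk2*, *Prm1*, *Prm2* and *Tnp2*. None of these 10 reached more than 11 counts in any library, and their counts added together were 13 to 33 per library. As the filter works on levels, the 26 tested genes do not stand for all 36.

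**Figure D1:**
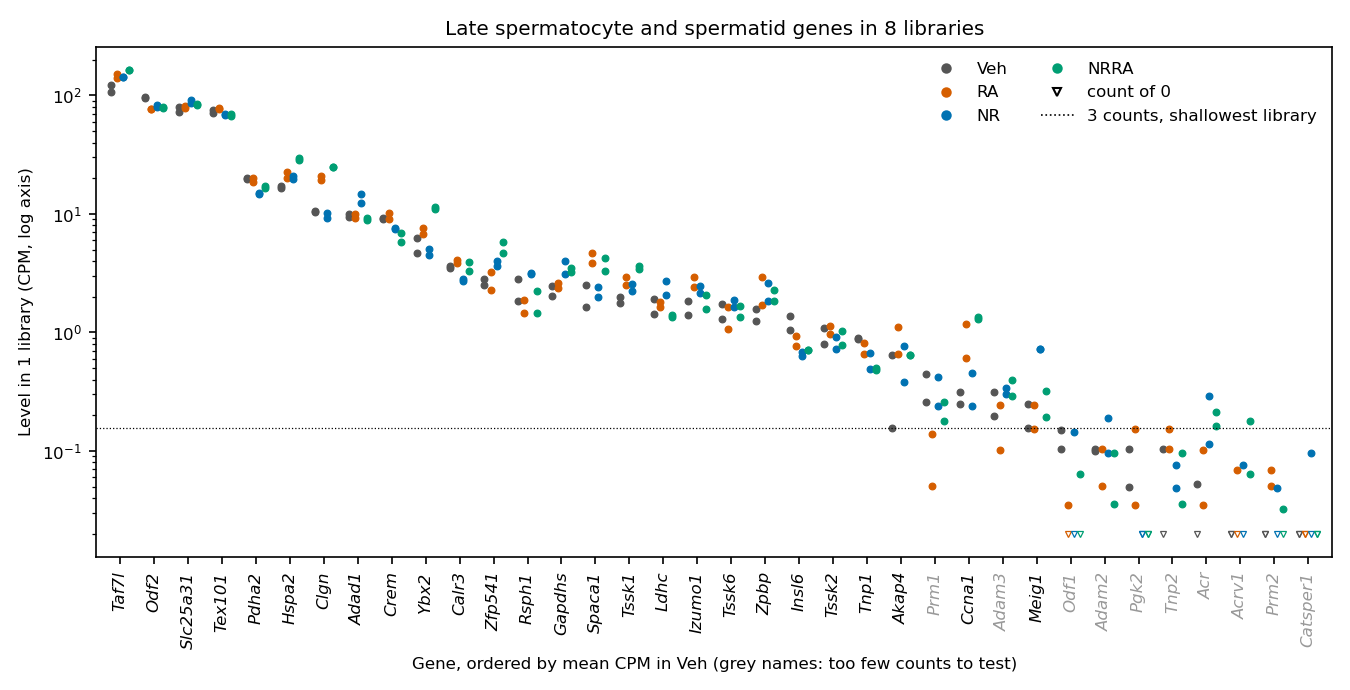
Level of each of the 36 genes in each library, in CPM on a log axis, with 4 treatments in colour and 2 libraries each. Filled points are measured levels, open triangles are counts of 0 drawn at the bottom of the axis, the dotted line is 3 counts in the shallowest library (0.156 CPM), and grey names are the 10 genes with too few counts to test. CPM is not scaled by gene length, so points compare libraries within a gene.

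In Veh, without retinoic acid or nutrient restriction, 3 genes were already transcribed at a level in the upper part of all genes. Scaled by exon length, *Taf7l* (chrX:134460118-134476490, mm10 coordinates as in GENCODE M21 for every gene) stood at 51.2 CPM per kb in Veh, *Tex101* at 43.9 and *Slc25a31* at 35.7, which placed them at percentiles 95.4, 94.3 and 92.5 of the tested genes. *Odf2*, at 9.66 CPM per kb, *Pdha2*, at 8.48, and *Hspa2*, at 6.37, followed at percentiles 70.8, 68.2 and 61.9. The other genes lay at or below 2.94 CPM per kb in Veh, under the middle of the distribution. By reads rather than per length, *Taf7l*, *Odf2*, *Slc25a31* and *Tex101* together took 75.0% to 79.4% of all reads of the 36 genes in a library. The summed level of the 36 genes was 450.1 and 464 CPM with Veh, 495 and 501 with RA, 483 and 485 under NR and 521 and 528 under NRRA, so that the group sums did not overlap, and the NRRA mean was 1.15 times that of Veh. The largest single part of that rise was *Taf7l*, whose mean went from 115 CPM in Veh to 163 in NRRA. *Slc25a31* went from 76.0 to 83.6, *Odf2* from 95.9 to 79.1 and *Tex101* from 72.8 to 68.3.

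The 250 bases before the RefSeq start (GRCm38.p6) are shown for genes that were well transcribed and for genes of nuclear compaction. Of the latter, *Tnp1* had enough counts to test and the others did not. Each CpG dinucleotide is in capitals, because CpG content is the property by which mammalian promoters are most often divided. RefSeq promoters were found for 26 of the 36 genes and none was found for *Acr*, *Adad1*, *Adam2*, *Adam3*, *Catsper1*, *Clgn*, *Crem*, *Insl6*, *Odf1* and *Rsph1*. *Taf7l* (chrX:134476491-134476740 on the minus strand) and *Slc25a31* (chr3:40708621-40708870 on the plus strand) had 14 and 18 CpGs:
Taf7l: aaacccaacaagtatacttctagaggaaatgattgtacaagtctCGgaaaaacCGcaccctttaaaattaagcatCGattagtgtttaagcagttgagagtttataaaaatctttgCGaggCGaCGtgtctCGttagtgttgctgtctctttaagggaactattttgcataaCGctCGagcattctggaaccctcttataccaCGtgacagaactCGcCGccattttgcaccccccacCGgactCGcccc
Slc25a31: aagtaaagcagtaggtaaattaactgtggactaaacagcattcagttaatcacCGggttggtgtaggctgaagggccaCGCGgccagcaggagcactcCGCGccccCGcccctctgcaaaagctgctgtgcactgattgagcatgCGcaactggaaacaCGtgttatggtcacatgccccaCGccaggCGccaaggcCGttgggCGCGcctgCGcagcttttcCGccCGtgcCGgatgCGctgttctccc
*Tnp1* (chr1:73015900-73016149 on the minus strand), *Prm1* (chr16:10796824-10797073 on the minus strand) and *Prm2* (chr16:10792106-10792355 on the minus strand), which encode the proteins that replace histones in the spermatid nucleus, had 2, 0 and 2:
Tnp1: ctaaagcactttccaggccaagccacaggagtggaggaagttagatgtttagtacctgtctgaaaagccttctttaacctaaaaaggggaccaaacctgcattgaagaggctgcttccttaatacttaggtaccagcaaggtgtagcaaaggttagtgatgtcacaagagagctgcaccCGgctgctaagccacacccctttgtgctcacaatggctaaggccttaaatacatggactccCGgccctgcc
Prm1: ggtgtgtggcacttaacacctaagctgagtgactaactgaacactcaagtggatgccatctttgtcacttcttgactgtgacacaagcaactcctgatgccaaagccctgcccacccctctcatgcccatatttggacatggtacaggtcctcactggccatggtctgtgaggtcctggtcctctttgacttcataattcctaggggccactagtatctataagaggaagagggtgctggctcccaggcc
Prm2: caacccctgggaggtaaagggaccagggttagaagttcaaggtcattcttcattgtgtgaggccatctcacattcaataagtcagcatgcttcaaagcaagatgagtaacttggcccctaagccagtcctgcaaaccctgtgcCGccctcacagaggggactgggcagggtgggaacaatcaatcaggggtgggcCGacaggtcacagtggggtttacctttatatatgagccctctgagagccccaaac
The median over all 32851 promoters in the table was 6 CpGs. *Tex101* held 14 CpGs, *Hspa2* 18, *Pdha2* 4, *Ccna1* 26, the starts of *Odf2* 22 to 35 and those of *Ybx2* 29 to 35. The CpG number did not follow the level per kb in Veh throughout. There *Pdha2* was at percentile 68.2 of the tested genes, *Tnp1* at 40.4 and *Ccna1* at 7.23. Among the genes with too few counts to test, the 5 with a promoter (*Acrv1*, *Pgk2*, *Prm1*, *Prm2* and *Tnp2*) had 0 to 3 CpGs. The 21 tested genes with a promoter had 0 to 35, and among them *Akap4*, *Gapdhs*, *Tnp1*, *Tssk1* and *Zfp541* had 0 to 2 at each start. These are descriptions of the sequences, and their part in the levels was not tested.

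Measured against Veh, 17 of the 26 tested genes (65.4%) changed in at least 1 treatment, beside 71.3% of all genes, and 9 did not pass the test in any. A gene was called when its adjusted p was under 0.05 in edgeR's quasi-likelihood test, with adjustment over all 20477 genes tested. Each result was refitted in 14 other ways (13 for the interaction, which needs all groups), called alternatives here: DESeq2, 2 other scalings, no filter on low counts, a replicate block, only the groups compared, and each of the 8 libraries left out in turn. In RA, 7 genes were called higher and 1 lower (percent called among all genes 19.8% higher and 23.4% lower), and in NR, 7 were higher and 3 lower (all genes 21.7% and 22.2%). NRRA had 10 higher and 4 lower (all genes 30.1% and 28.7%). As shares of the 26 tested genes, 26.9%, 26.9% and 38.5% were higher in RA, NR and NRRA, above the share of all genes by less than 10 percentage points each time. The share called lower was 3.85%, 11.5% and 15.4%, below that of all genes each time. With a change of at least 2-fold also required, 2 genes remained higher in RA (all genes 4.74%), 1 in NR (5.33%) and 3 in NRRA (9.91%), and none was lower (all genes 2.75%, 2.96% and 6.02%). Both RA libraries were above both of Veh for 12 genes (all genes 32.2%) and below them for 3 (35.9%), and the NR pair was above for 12 (34.8%) and below for 8 (34.2%). The NRRA pair was above for 11 (40.6%) and below for 8 (36.8%). Medians over the tested genes were 0.11, 0.24 and 0.15 on the log2 scale for RA, NR and NRRA, beside -0.02, 0.01 and 0.03 over all genes. The 3 comparisons share the same Veh libraries.

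The early meiotic genes gave the scale for these numbers. Of 32 genes of meiotic entry, synapsis and recombination, 31 were tested. In NRRA 28 of these rose and none fell (all genes 30.1% and 28.7%), with the median change at 0.93 on the log2 scale. In RA 23 of them rose (all genes 19.8%), and in NR 11 rose and 1 fell (all genes 21.7% and 22.2%). *Stra8*, the retinoic acid target that starts the programme, went from 1.14 and 1.51 CPM in Veh to 917 and 957 in NRRA. *Rec8*, the meiotic cohesin subunit, rose by 3.38 on the log2 scale (SE 0.104) and *Gm4969*, which encodes the partner of STRA8, by 3.34 (SE 0.188). The summed level of the early genes in NRRA was 3.71 times that in Veh, against 1.15 times for the late genes. *Taf7l*, *Odf2*, *Slc25a31* and *Tex101*, already well transcribed in Veh, made up 75.0% to 79.4% of the late sum in a library. The value of 1.15 therefore mostly describes those genes and says little about the others. Without *Stra8*, the other 31 early genes summed to 2.02 times the Veh level. Of 10 markers of undifferentiated spermatogonia, all tested, 9 fell and none rose in NRRA (all genes 28.7% and 30.1%), where they summed to 157 to 158 CPM against 868 to 935 in Veh. Of 10 markers of differentiating spermatogonia, 9 were tested, and in NRRA 5 rose and 2 fell (all genes 30.1% and 28.7%). The early list overlaps with genes that the study chose on these samples, so its direction is not independent evidence.

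**Figure D2:**
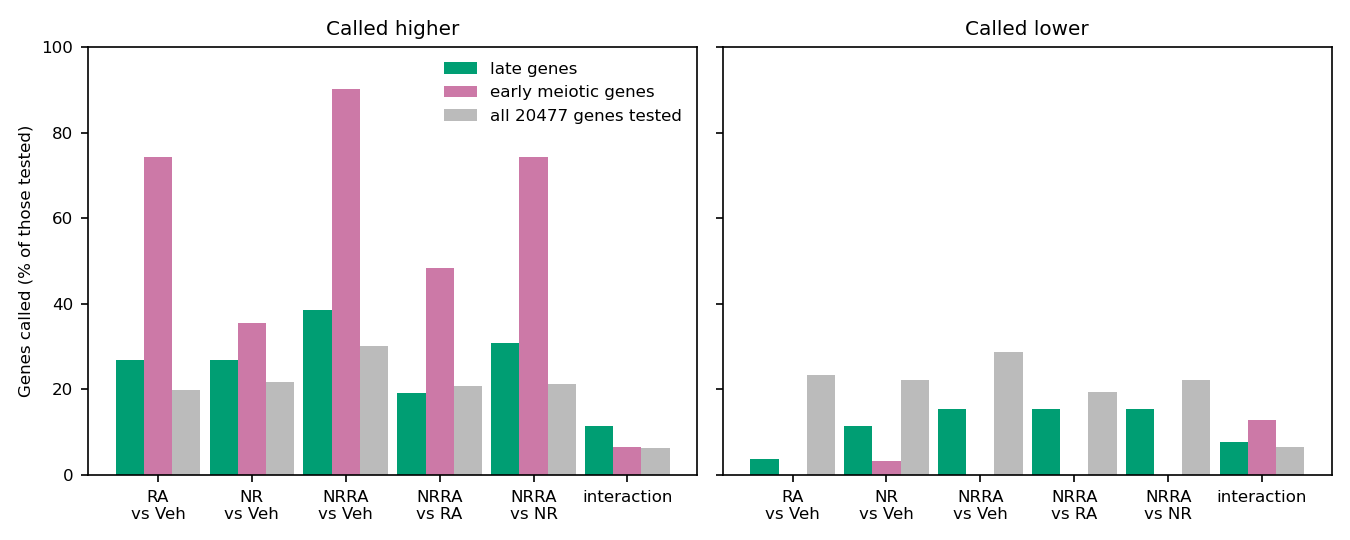
Share of tested genes called higher (left) and lower (right) at adjusted p under 0.05 in 6 comparisons, for the 26 tested late genes, the 31 tested early meiotic genes and all 20477 tested genes. In NRRA vs Veh, 38.5% of the late genes, 90.3% of the early meiotic genes and 30.1% of all genes were higher.

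The summed levels of cell type markers also differed between the libraries. A set of 8 germ cell markers summed to 831 to 865 CPM with Veh, 952 to 1011 with RA, 1003 to 1031 under NR and 1125 to 1143 under NRRA, so that their mean in NRRA was 1.34 times that in Veh. All 8 were tested, and in NRRA 5 of them were higher and 3 lower (all genes 30.1% and 28.7%). The largest changes were -3.48 for *Nanos3* and 0.78 for *Tex11* on the log2 scale. The members did not move together, so their sum does not measure germ cell content. A set of 10 fibroblast markers, all tested, summed to 18140.3 to 18359 CPM with Veh, 14961 to 16098 with RA, 29847 to 31136 under NR and 24171 to 24948 under NRRA. In NRRA 7 of the 10 were higher and 3 lower (all genes 30.1% and 28.7%), with -2.32 for *S100a4* and 1.60 for *Postn* on the log2 scale. Sertoli cell markers had 6 of 8 members tested and summed to 39.4 to 42.3 CPM with Veh, 28.5 to 29.4 with RA, 46.3 to 49.4 under NR and 17.4 to 19.1 under NRRA, with *Amh* and *Fshr* at no more than 5 counts in any library. Of the 6, 3 were called higher and 1 lower in NRRA (all genes 30.1% and 28.7%). The member called lower was *Sox9* (log2 -2.16), and those called higher included *Cldn11* (1.58) and *Aard* (0.84). Members of the fibroblast and Sertoli sets moved both ways, so these sums do not measure cell content either. Leydig cell markers had 2 of 5 tested and summed to 7.68 to 9.07 CPM with Veh, 13.5 to 15.0 with RA, 5.77 to 7.03 under NR and 7.29 to 7.40 under NRRA. In whole cultures, fewer cells of a type and less RNA per cell cannot be told apart, and the part of these shifts in the changes of the late genes was not tested.

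**Figure D3:**
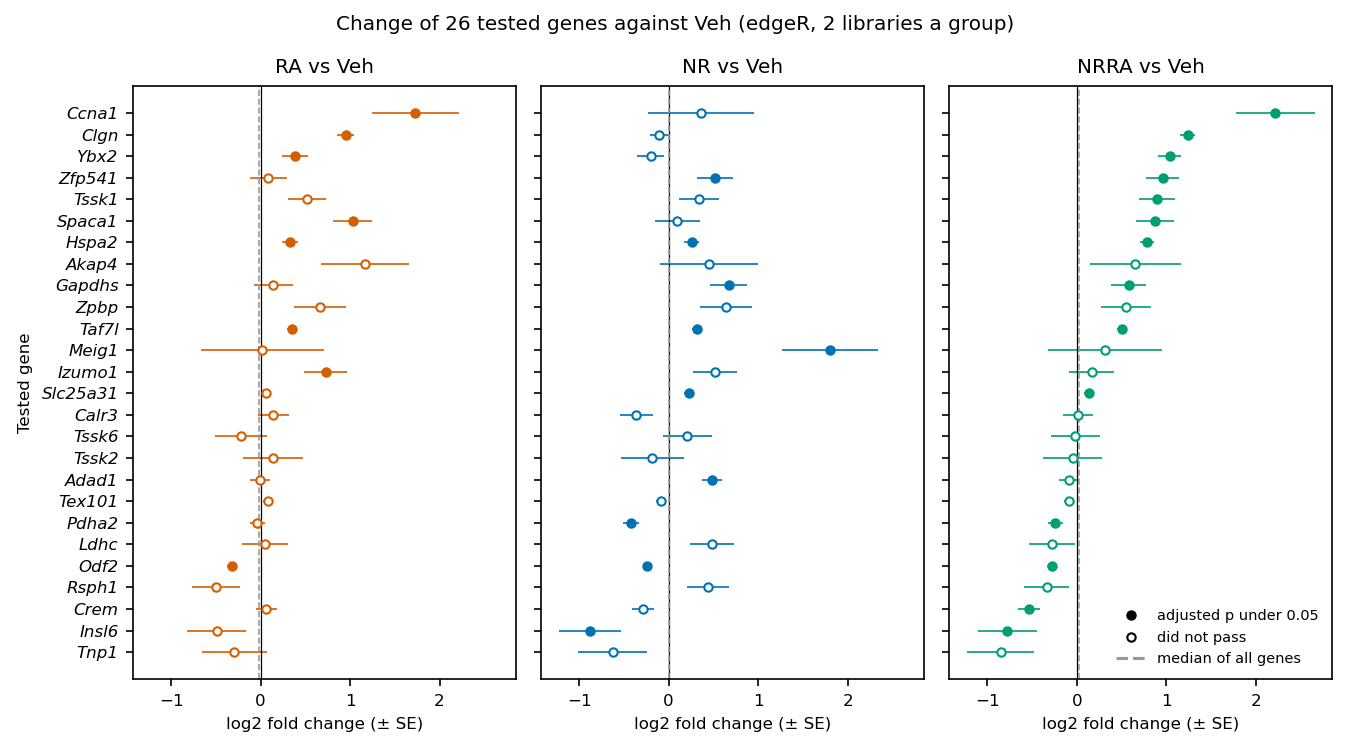
Log2 fold change against Veh of the 26 tested genes in RA, NR and NRRA, with bars of 1 SE, sorted by the change in NRRA. Filled points had an adjusted p under 0.05, open points did not, and the dashed line is the median of all tested genes. Ccna1, Clgn and Ybx2 head the NRRA panel, and Meig1 has its largest value in NR.

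Among the enzymes of energy metabolism, 4 of 5 were tested, and they did not move together. *Gapdhs* (chr7:30729775-30743681), the glyceraldehyde-3-phosphate dehydrogenase of the sperm tail, measured 2.48 and 2.03 CPM with Veh, 2.34 and 2.60 with RA, 3.13 and 3.99 under NR and 3.25 and 3.50 under NRRA. It was higher in NR (log2 0.67, SE 0.203, adjusted p = 0.00879) and in NRRA (log2 0.58, SE 0.198, adjusted p = 0.0142), where no library overlapped with Veh. In NR the call was lost with DESeq2 and without Veh replicate 2 (0.55) or NR replicate 2 (0.49). In NRRA the call was lost with DESeq2 and without Veh replicate 2 (0.45) or NRRA replicate 2 (0.52). An opposite-strand gene, *Tmem147os*, covers 10.1% of the exon bases of *Gapdhs*, and whether the counting used strand is not given in the sources used here.

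*Slc25a31* (chr3:40708855-40726096), the ADP/ATP carrier of germ cell mitochondria, was at 72.7 and 79.3 CPM with Veh, 80.7 and 78.2 with RA, 86.9 and 90.7 under NR and 82.2 and 85.0 under NRRA. It was 1.17-fold higher in NR (log2 0.23, SE 0.0549, adjusted p = 0.00141) and 1.10-fold higher in NRRA (log2 0.14, SE 0.0542, adjusted p = 0.0306). For *Slc25a31* in NRRA the call was lost with DESeq2, with RLE size factors, with the fit on the groups compared alone and without Veh replicate 1 (0.08), NRRA replicate 1 (0.16) or NRRA replicate 2 (0.11). *Pdha2* (chr3:141210004-141212355), the retrogene for the pyruvate dehydrogenase alpha subunit, went the other way, at 20.3 and 19.6 CPM with Veh, 18.6 and 20.1 with RA, 14.7 and 15.1 under NR and 16.5 and 17.3 under NRRA. Its level fell in NR (log2 -0.42, SE 0.0862, adjusted p = 0.000246) and in NRRA (log2 -0.24, SE 0.0817, adjusted p = 0.0139), and both NR libraries lay under every other library. For *Pdha2* in NRRA the call was lost with DESeq2, with library totals alone and without Veh replicate 1 (-0.21) or NRRA replicate 1 (-0.21). It was also lower in NRRA than in RA (log2 -0.20, SE 0.0794, adjusted p = 0.0441), where the call was lost with DESeq2, with library totals alone, with no filter on low counts and without RA replicate 2 (-0.13), NRRA replicate 1 (-0.17) or NRRA replicate 2 (-0.24).

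*Ldhc* (chr7:46861203-46878142), the lactate dehydrogenase of spermatocytes and sperm, passed no test against Veh at 1.44 and 1.93 CPM with Veh, 1.63 and 1.80 with RA, 2.70 and 2.05 under NR and 1.36 and 1.41 under NRRA. The highest pair was NR, and NRRA was lower than NR (log2 -0.76, SE 0.232, adjusted p = 0.00984). There the call was lost with DESeq2 and without NR replicate 1 (-0.58) or NRRA replicate 1 (-0.73). *Pgk2*, the phosphoglycerate kinase retrogene, had 1 and 2 counts with Veh, 3 and 1 with RA, 0 and 0 under NR and 0 and 0 under NRRA, at or under the floor throughout.

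The cell cycle and chaperone genes held the largest changes of the set. *Ccna1* (chr3:55045469-55055501), the A-type cyclin of male meiosis, had 5 and 6 counts with Veh, 12 and 34 with RA, 5 and 12 under NR and 36 and 42 under NRRA, or 0.248 and 0.313 CPM with Veh, 0.612 and 1.18 with RA, 0.241 and 0.456 under NR and 1.29 and 1.35 under NRRA. It rose 3.32-fold in RA (log2 1.73, SE 0.482, adjusted p = 0.00490) and 4.65-fold in NRRA (log2 2.22, SE 0.441, adjusted p = 0.000107), and NRRA was also above NR (log2 1.86, SE 0.395, adjusted p = 0.000376). The 2 RA libraries were unequal, and for RA the call was lost without RA replicate 2 (1.12). Both calls of NRRA stood in each of the 14 alternatives. Per kb of exon the gene rose from percentile 7.23 of tested genes in Veh to 22.5 in NRRA. The opposite-strand gene *4931419H13Rik* covers 10.1% of its exon bases.

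*Hspa2* (chr12:76404176-76406938), the Hsp70 chaperone that spermatocytes need to leave meiotic prophase, was at 17.1 and 16.6 CPM with Veh, 22.6 and 20.0 with RA, 20.9 and 19.5 under NR and 28.4 and 29.6 under NRRA, with both NRRA libraries above the other 6. It rose in RA (log2 0.33, SE 0.0857, adjusted p = 0.00287), in NR (log2 0.26, SE 0.0865, adjusted p = 0.0172) and most in NRRA, 1.72-fold (log2 0.78, SE 0.0801, adjusted p = 3.93e-09). NRRA was above RA (log2 0.46, SE 0.0745, adjusted p = 1.57e-05) and above NR (log2 0.53, SE 0.0753, adjusted p = 2.20e-06), and these calls and that of NRRA against Veh held in all 14 alternatives. For NR the call was lost with DESeq2 and without NR replicate 1 (0.23). For RA the call was lost without RA replicate 1 (0.25).

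*Meig1* (chr2:3409043-3422648), needed to build the sperm, was called higher in NR and in neither of the other treatments. It had 5 and 3 counts with Veh, 3 and 7 with RA, 15 and 19 under NR and 9 and 6 under NRRA. Both NR libraries, at 0.723 and 0.721 CPM, were above the other 6, which lay between 0.153 and 0.322 CPM. The gene rose in NR (log2 1.80, SE 0.533, adjusted p = 0.00726), and NRRA was lower than NR (log2 -1.49, SE 0.456, adjusted p = 0.00964). For NR against Veh the call was lost with DESeq2 and without Veh replicate 2 (1.54). For NRRA against NR the call was lost with DESeq2 and without NR replicate 2 (-1.50) or NRRA replicate 2 (-1.15). The difference between the retinoic acid effects with and without nutrient restriction did not pass (log2 -1.51, SE 0.836, adjusted p = 0.270).

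*Clgn* had the clearest pattern of the endoplasmic reticulum chaperones, which fold the sperm surface proteins used in fertilisation. *Clgn* (calmegin, chr8:83389867-83428552) measured 10.4 and 10.6 CPM with Veh, 19.4 and 20.9 with RA, 10.3 and 9.30 under NR and 24.9 and 24.6 under NRRA. The libraries with retinoic acid were all above those without. It was 1.93-fold higher in RA (log2 0.95, SE 0.0928, adjusted p = 5.05e-09) and 2.36-fold higher in NRRA (log2 1.24, SE 0.0883, adjusted p = 3.78e-12), while NR gave log2 -0.11, SE 0.105, adjusted p = 0.444. NRRA was above NR (log2 1.35, SE 0.0862, adjusted p = 1.00e-12) and above RA by less (log2 0.29, SE 0.0758, adjusted p = 0.00311). Of these 4 calls that against RA was lost with DESeq2 (log2 0.27), and the others stood in every alternative. *Calr3* (calsperin), its calreticulin-like partner, stayed between 2.73 and 4.08 CPM, was lowest in both NR libraries (2.79 and 2.73) and passed no test. For *Calr3* in NRRA against NR (log2 0.38, SE 0.171, adjusted p = 0.0768) the value passed with library totals alone.

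The regulators of gene expression divided into 4 that rose in NRRA or NR and *Crem*, which fell. *Ybx2* (chr11:69935796-69941605), the Y-box protein (MSY2) that binds and stores germ cell messages, was at 6.24 and 4.64 CPM with Veh, 7.60 and 6.80 with RA, 5.01 and 4.52 under NR and 11.4 and 11.0 under NRRA. Both NRRA libraries were far above the other 6. It rose 2.05-fold in NRRA (log2 1.04, SE 0.129, adjusted p = 1.24e-07), NRRA was above RA (log2 0.65, SE 0.117, adjusted p = 5.69e-05) and above NR (log2 1.24, SE 0.128, adjusted p = 9.30e-09), and all 3 calls stood in every alternative. The smaller rise in RA (log2 0.39, SE 0.143, adjusted p = 0.0309) was less firm, since the call was lost with DESeq2 and without Veh replicate 2 (0.21) or RA replicate 1 (0.31). NR alone gave log2 -0.20, SE 0.156, adjusted p = 0.313.

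*Zfp541* (chr7:16061814-16096334), a zinc finger protein of the chromatin complex that acts in pachytene cells, was at 2.53 and 2.81 CPM with Veh, 2.29 and 3.22 with RA, 3.61 and 3.99 under NR and 5.75 and 4.69 under NRRA. It rose in NRRA (log2 0.96, SE 0.183, adjusted p = 6.20e-05), with both libraries above the other 6, and NRRA was above RA (log2 0.88, SE 0.172, adjusted p = 0.000161). Those 2 calls held in all 14 alternatives. The rise in NR was smaller (log2 0.52, SE 0.200, adjusted p = 0.0383) and the call was lost with DESeq2 and without Veh replicate 1 (0.46), Veh replicate 2 (0.61), NR replicate 1 (0.60) or NR replicate 2 (0.45). For NRRA above NR (log2 0.45, SE 0.163, adjusted p = 0.0286) the call was lost with DESeq2 and without NR replicate 1 (0.36), NR replicate 2 (0.51) or NRRA replicate 1 (0.30). The study counted *Zfp541* among genes of early meiosis. It named the gene as one that nutrient restriction starts to activate and retinoic acid raises further. The pattern of *Zfp541* is therefore not independent evidence.

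*Taf7l*, the X-linked germ cell variant of a TFIID subunit, was at 107 and 123 CPM with Veh, 141 and 152 with RA, 142 and 144 under NR and 163 and 163 under NRRA, above Veh in all 6 treated libraries. It rose in RA (log2 0.35, SE 0.0553, adjusted p = 9.18e-06), NR (log2 0.32, SE 0.0554, adjusted p = 3.86e-05) and NRRA (log2 0.51, SE 0.0545, adjusted p = 9.90e-09), each by less than 2-fold, and these 3 calls stood in every alternative. NRRA was higher than NR (log2 0.19, SE 0.0530, adjusted p = 0.00467), though the call was lost without NR replicate 1 (0.16) or NR replicate 2 (0.19). It was also higher than RA (log2 0.15, SE 0.0529, adjusted p = 0.0222), where the call was lost with DESeq2 and without RA replicate 1 (0.10), NR replicate 1 (0.14), NR replicate 2 (0.13), NRRA replicate 1 (0.15) or NRRA replicate 2 (0.15).

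*Adad1* (chr3:37063527-37121930), an RNA-binding protein of spermatids with an adenosine deaminase domain, was at 9.91 and 9.33 CPM with Veh, 10.0 and 9.22 with RA, 14.7 and 12.5 under NR and 8.83 and 9.28 under NRRA. NR stood above the 3 other groups, which lay between 8.83 and 10.0 CPM. The gene rose in NR (log2 0.49, SE 0.110, adjusted p = 0.000687), and NRRA was lower than NR (log2 -0.57, SE 0.103, adjusted p = 5.01e-05), with both calls standing in all 14 alternatives. In RA the value was -0.01 and in NRRA -0.09, neither past the test.

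*Crem*, the transcription factor that drives spermatid genes, was at 9.26 and 9.07 CPM with Veh, 10.2 and 9.12 with RA, 7.47 and 7.56 under NR and 5.75 and 6.87 under NRRA. It fell in NRRA (log2 -0.53, SE 0.122, adjusted p = 0.000493), NRRA was lower than RA (log2 -0.60, SE 0.116, adjusted p = 0.000144), and both calls stood in all 14 alternatives. RA alone gave 0.06, and NR gave log2 -0.29, SE 0.123, adjusted p = 0.0613, which did not pass. Gene counts do not separate the activator and repressor isoforms of *Crem*, and an opposite-strand gene, *Gm6225*, covers 8.01% of its exon bases.

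**Figure D4:**
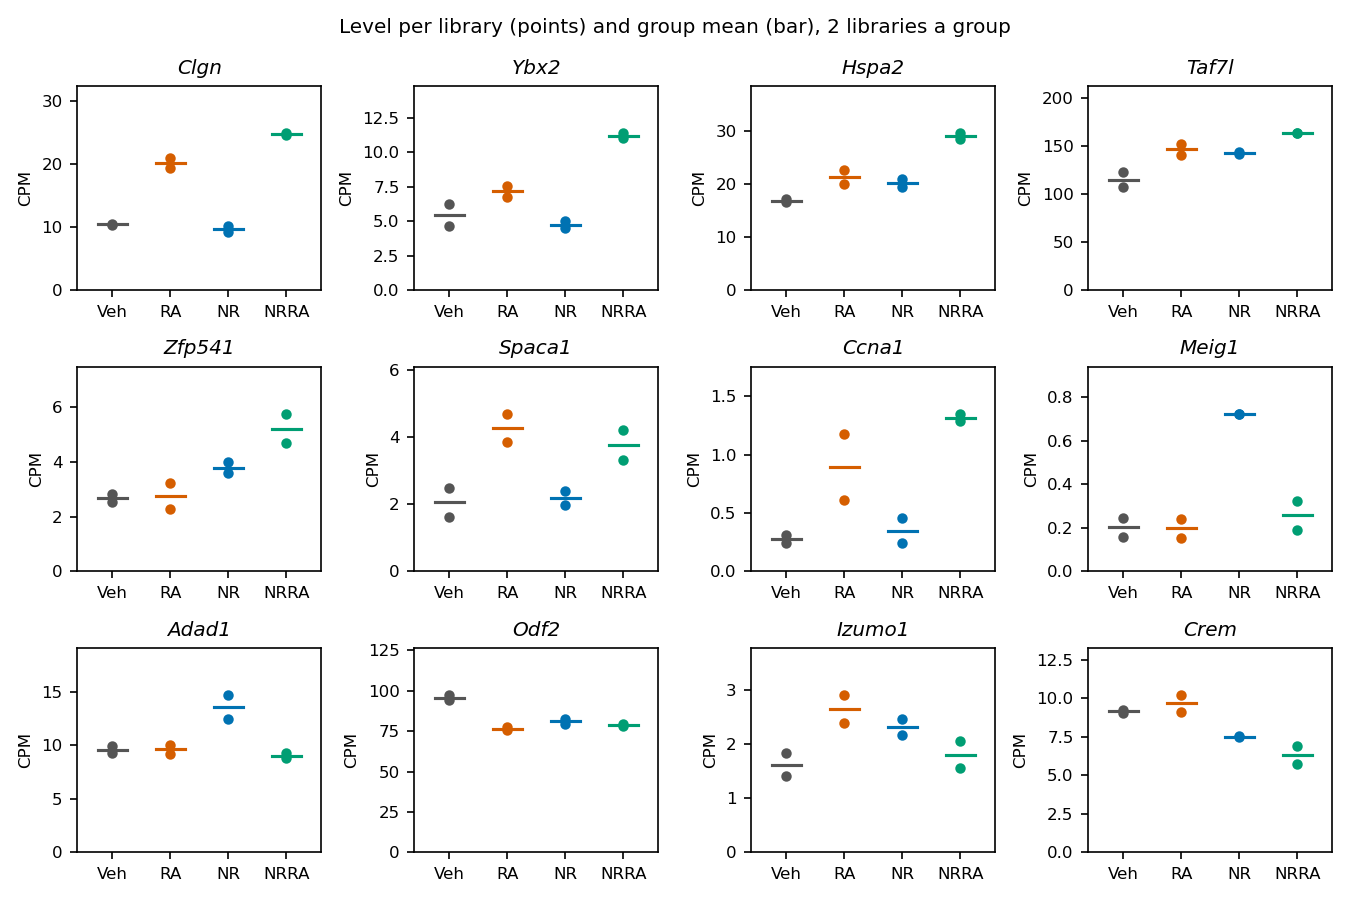
Level of 12 of the tested genes in CPM on a linear axis from 0, with points for the 2 libraries of each treatment and a bar for their mean. Clgn and Spaca1 are high in both treatments with retinoic acid, Ybx2, Hspa2 and Zfp541 are highest in NRRA, Meig1 and Adad1 are highest in NR, and Odf2 is lower than Veh in all treated libraries.

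The genes *Clgn*, *Hspa2*, *Taf7l*, *Ybx2* and *Zfp541*, 5 in all, were called higher in NRRA against all 3 of the other groups (19.2% of those tested, beside 7.83% of all genes), and no gene was called lower than all 3 (all genes 8.39%). Both shares are from edgeR. With DESeq2 a needed call was lost for *Clgn* and *Taf7l* against RA and for *Zfp541* against NR. The calls of *Taf7l* against RA and *Zfp541* against NR were also lost without single libraries, as given above. The folds of these 5 genes over Veh in RA, NR and NRRA were 1.93, 0.929 and 2.36 for *Clgn*, 1.26, 1.20 and 1.72 for *Hspa2*, 1.28, 1.24 and 1.42 for *Taf7l*, 1.31, 0.869 and 2.05 for *Ybx2* and 1.06, 1.43 and 1.95 for *Zfp541*, which the study had already named for its pattern. The summed germ cell markers stood at 1.16, 1.20 and 1.34 times Veh and the fibroblast markers at 0.851, 1.67 and 1.35 times, and their part in these folds was not tested. Against RA, NRRA had 5 genes higher and 4 lower (all genes 20.9% and 19.4%), and against NR, 8 higher and 4 lower (all genes 21.3% and 22.1%). At 2-fold or more, none was higher or lower than RA (all genes 4.61% and 3.68%), and 3 were higher and 1 lower than NR (4.56% and 4.14%). The comparisons share libraries, and the shares of 19.2% and 15.4% against RA are at or below the background. The interaction asks whether retinoic acid changed a gene by another amount under nutrient restriction than in complete medium. It was called positive for 3 genes, *Ybx2*, *Clgn* and *Odf2*, and negative for 2, *Izumo1* and *Adad1* (all genes 6.37% and 6.58%, or 0.786% and 1.46% at 2-fold or more, where only *Izumo1* remained), and the log2 value was 0.85, SE 0.195, adjusted p = 0.00350 for *Ybx2*. For *Ybx2* the call was lost without Veh replicate 1 (0.58).

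The sperm surface and fusion genes had 4 of 6 members tested. *Spaca1* (chr4:34024874-34050191), an acrosomal membrane protein, was at 1.63 and 2.50 CPM with Veh, 4.69 and 3.85 with RA, 1.98 and 2.39 under NR and 3.32 and 4.21 under NRRA, with all 4 libraries that received retinoic acid above the 4 that did not. It rose 2.04-fold in RA (log2 1.03, SE 0.218, adjusted p = 0.000377) and 1.83-fold in NRRA (log2 0.88, SE 0.215, adjusted p = 0.00106), calls that stood in every alternative. NRRA was above NR (log2 0.78, SE 0.203, adjusted p = 0.00276), and there the call was lost without NRRA replicate 2 (0.59).

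*Izumo1* (chr7:45621811-45628823), the sperm protein that binds the egg before fusion, was at 1.83 and 1.41 CPM with Veh, 2.40 and 2.91 with RA, 2.17 and 2.47 under NR and 1.57 and 2.05 under NRRA. It rose in RA (log2 0.73, SE 0.238, adjusted p = 0.0150), while NR gave log2 0.52, SE 0.245, adjusted p = 0.0899 and NRRA log2 0.17, SE 0.247, adjusted p = 0.588, and NRRA was lower than RA (log2 -0.56, SE 0.212, adjusted p = 0.0364). For the rise in RA the call was lost with DESeq2 and without Veh replicate 2 (0.57) or RA replicate 2 (0.56). For NRRA against RA the call was lost with DESeq2 and without RA replicate 2 (-0.39) or NRRA replicate 1 (-0.39). Another gene on the same strand, *Rasip1*, covers 21.9% of the exon bases of *Izumo1*, so its counts are uncertain.

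*Tex101*, a surface glycoprotein of germ cells, stayed between 67.3 and 77.5 CPM in all libraries. It passed no test against Veh (RA 0.08, NR -0.08, NRRA -0.09 on the log2 scale) and was slightly lower in NRRA than in RA (log2 -0.17, SE 0.0519, adjusted p = 0.0100). There the call was lost without RA replicate 1 (-0.16) or NRRA replicate 1 (-0.15). Of the values against Veh, for RA the value passed with library totals alone and without Veh replicate 1 (0.14), and for NRRA the value passed without Veh replicate 2 (-0.13). *Zpbp*, which helps to shape the acrosome, was at 1.24 and 1.56 CPM with Veh, 2.91 and 1.70 with RA, 2.60 and 1.82 under NR and 2.29 and 1.83 under NRRA and passed no test (log2 in RA 0.66, SE 0.289, adjusted p = 0.0681). For *Zpbp* in RA the value passed with library totals alone, with no filter on low counts, with the replicate block and without RA replicate 2 (1.05), and in NR the value passed with no filter on low counts and without NR replicate 2 (0.91). *Adam2* and *Adam3*, the sperm surface proteins that *Clgn* and *Calr3* help to fold, had 1 to 5 and 2 to 11 counts per library.

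Of the acrosome and hormone genes, *Insl6* (chr19:29321344-29325356), an insulin-like peptide of spermatocytes and spermatids, was at 1.39 and 1.04 CPM with Veh, 0.765 and 0.936 with RA, 0.626 and 0.683 under NR and 0.715 and 0.706 under NRRA, with all 6 treated libraries under both of Veh. It was called lower in NR (log2 -0.88, SE 0.346, adjusted p = 0.0402) and NRRA (log2 -0.77, SE 0.325, adjusted p = 0.0436). Both calls depended on single libraries. For NR the call was lost with DESeq2 and without Veh replicate 1 (-0.64), NR replicate 1 (-0.81), NR replicate 2 (-0.94) or NRRA replicate 1 (-0.88). For NRRA the call was lost with DESeq2, with library totals alone, with no filter on low counts, with the replicate block and without Veh replicate 1 (-0.55), NR replicate 1 (-0.77), NR replicate 2 (-0.77), NRRA replicate 1 (-0.78) or NRRA replicate 2 (-0.77). *Acr*, the main acrosomal protease, had 0 and 1 counts with Veh, 2 and 1 with RA, 6 and 3 under NR and 6 and 5 under NRRA, and *Acrv1*, an acrosomal matrix protein, had 0 and 0 counts with Veh, 0 and 2 with RA, 0 and 2 under NR and 5 and 2 under NRRA. Both were too low to test.

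Of the 4 genes of nuclear compaction, *Tnp1* alone had enough counts to test. *Tnp1*, whose transition protein replaces histones first, had 18 and 17 counts with Veh, 16 and 19 with RA, 14 and 13 under NR and 14 and 15 under NRRA, and the range of 0.482 to 0.892 CPM ran from NRRA to Veh. The value in NRRA was -0.85, SE 0.379, adjusted p = 0.0567 on the log2 scale, which did not pass. For *Tnp1* in NRRA the value passed with the fit on the groups compared alone. *Tnp2* had 0 to 3 counts, *Prm2* 0 to 2 and *Prm1* 1 to 11. Together *Tnp1*, *Tnp2*, *Prm1* and *Prm2* summed to 1.25 to 1.34 CPM in Veh, 0.971 to 1.07 in RA, 0.987 to 1.01 in NR and 0.715 to 0.867 in NRRA. These sums rest on 24 to 27 counts per library in Veh and 20 to 27 in NRRA, and they were not tested. 

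The flagellar genes had 3 of 5 members tested. *Odf2* (chr2:29889221-29931746), which builds the outer dense fibres of the tail and also the distal appendages of centrioles in somatic cells, was at 97.3 and 94.4 CPM with Veh, 76.1 and 77.3 with RA, 79.5 and 82.6 under NR and 78.4 and 79.7 under NRRA. It was lower than Veh in all 6 treated libraries, with log2 changes of -0.32, SE 0.0511, adjusted p = 1.17e-05 in RA, -0.24, SE 0.0509, adjusted p = 0.000352 in NR and -0.28, SE 0.0501, adjusted p = 3.20e-05 in NRRA. These 3 calls stood in every alternative. The markers of ciliated cells, 5 of 7 tested, summed to 15.4 to 17.5 CPM with Veh, 15.6 to 17.5 with RA, 20.5 to 22.4 under NR and 19.6 to 20.3 under NRRA, with *Mcidas* at 0 to 2 counts, and their part in the *Odf2* change was not tested.

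*Rsph1* (chr17:31255019-31277383), a radial spoke head protein of motile cilia and flagella, was at 1.83 and 2.81 CPM with Veh, 1.89 and 1.46 with RA, 3.18 and 3.11 under NR and 2.25 and 1.44 under NRRA. NRRA was lower than NR (log2 -0.78, SE 0.226, adjusted p = 0.00643). There the call was lost with DESeq2 and without NRRA replicate 2 (-0.48). No value against Veh passed, although for RA the value passed without Veh replicate 1 (-0.76), and for NR the value passed without Veh replicate 2 (0.79). *Akap4*, the main fibrous sheath protein, had 13 and 3 counts with Veh, 13 and 32 with RA, 16 and 10 under NR and 18 and 20 under NRRA, with the Veh libraries at 0.644 and 0.156 CPM. In RA *Akap4* gave log2 1.17, SE 0.492, adjusted p = 0.0569, and the value passed with library totals alone, with no filter on low counts and without Veh replicate 1 (2.54) or RA replicate 1 (1.44). For *Akap4* in NRRA the value passed without Veh replicate 1 (2.01). *Odf1*, the major outer dense fibre protein, had 0 to 3 counts, and *Catsper1*, the pore of the sperm calcium channel, had 2 counts in 1 NR library and 0 in the other 7.

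All 3 testis-specific serine kinases were tested. *Tssk1* (chr16:17894223-17897922) was at 1.78 and 1.98 CPM with Veh, 2.91 and 2.53 with RA, 2.55 and 2.24 under NR and 3.61 and 3.40 under NRRA and rose 1.86-fold in NRRA (log2 0.90, SE 0.199, adjusted p = 0.000370), where no library overlapped with any of the other groups and the call stood in every alternative. It was also above NR (log2 0.56, SE 0.181, adjusted p = 0.0145), where the call was lost with DESeq2 and without NR replicate 2 (0.44) or NRRA replicate 1 (0.52). In RA (log2 0.52, SE 0.215, adjusted p = 0.0553) the value passed with library totals alone. Its neighbour *Tssk2*, next to it on chromosome 16, was at 0.723 to 1.12 CPM and passed no test, nor did *Tssk6*, at 1.07 to 1.86 CPM. *Tssk1* and *Tssk2* share 23 read-length stretches of their transcripts, and 29.2% of the exon bases of *Tssk6* overlap with *Ndufa13* on the opposite strand.

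A late gene can be set beside a somatic relative, as a ratio of levels per kb of exon. Every library can hold feeder RNA, which can add to the relative, so a ratio is not one within germ cells. The levels of the relatives moved too: of 14 relatives, 2 were higher and 10 lower in NRRA (all genes 30.1% and 28.7%), so a ratio shows unequal change and not which gene changed. The ratios are descriptions with no test. *Gapdhs* was 0.671% ± 0.0775 with Veh, 0.895% ± 0.119 with RA, 1.66% ± 0.330 under NR and 1.88% ± 0.0965 under NRRA of *Gapdh* (SD, n = 2), and *Gapdh* itself fell by 0.90 on the log2 scale in NRRA. *Ldhc* was 0.977% ± 0.239 with Veh, 1.38% ± 0.172 with RA, 1.88% ± 0.225 under NR and 1.68% ± 0.0476 under NRRA of *Ldha*, while *Ldha* fell by 1.07 in NRRA. *Slc25a31* was 38.8% ± 2.29 with Veh, 49.3% ± 1.04 with RA, 68.3% ± 1.55 under NR and 85.3% ± 2.82 under NRRA of *Slc25a5*, the carrier of dividing cells, which fell by 1.00. For all 3 pairs the NRRA libraries lay above the Veh libraries, and the NR libraries did too. Against *Slc25a4*, the carrier of muscle and heart, the ratio was 34.3% ± 2.96 with Veh, 39.4% ± 1.54 with RA, 48.9% ± 1.04 under NR and 49.0% ± 1.42 under NRRA.

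Of the other pairs, those of *Hspa2*, *Ybx2*, *Ccna1* and *Clgn* had their highest ratios in NRRA. *Hspa2* was 1.64% ± 0.0110 with Veh, 2.47% ± 0.147 with RA, 2.48% ± 0.0717 under NR and 4.20% ± 0.0462 under NRRA of *Hspa8*. *Ybx2* was 0.912% ± 0.176 with Veh, 1.48% ± 0.101 with RA, 1.09% ± 0.0713 under NR and 2.94% ± 0.0907 under NRRA of *Ybx1*. *Ccna1* was 0.570% ± 0.0666 with Veh, 1.85% ± 0.853 with RA, 1.03% ± 0.434 under NR and 2.85% ± 0.0260 under NRRA of *Ccna2*, and *Clgn* was 2.13% ± 0.159 with Veh, 4.17% ± 0.269 with RA, 1.91% ± 0.0865 under NR and 4.82% ± 0.00219 under NRRA of *Canx*. In each of these 4 pairs both NRRA libraries were above the other 6. *Taf7l* exceeded its somatic relative in every library, at 211% ± 2.54 with Veh, 247% ± 10.2 with RA, 219% ± 6.43 under NR and 272% ± 2.53 under NRRA of *Taf7*. *Calr3* against *Calr* gave 0.501% ± 0.0136 with Veh, 0.643% ± 0.0110 with RA, 0.352% ± 0.00489 under NR and 0.551% ± 0.0611 under NRRA, and *Pdha2* against *Pdha1* gave 24.6% ± 1.45 with Veh, 29.9% ± 3.31 with RA, 18.6% ± 0.858 under NR and 23.6% ± 0.0114 under NRRA, lowest in NR for both. *Crem* against *Creb1*, the family member active in most cells, went down, at 68.3% ± 3.95 with Veh, 49.7% ± 5.35 with RA, 41.3% ± 0.795 under NR and 30.1% ± 3.47 under NRRA, while *Creb1* rose in NRRA by 0.64 on the log2 scale. *Pgk2* was at 0 in the NR and NRRA libraries, so no ratio to *Pgk1* is given.

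**Figure D5:**
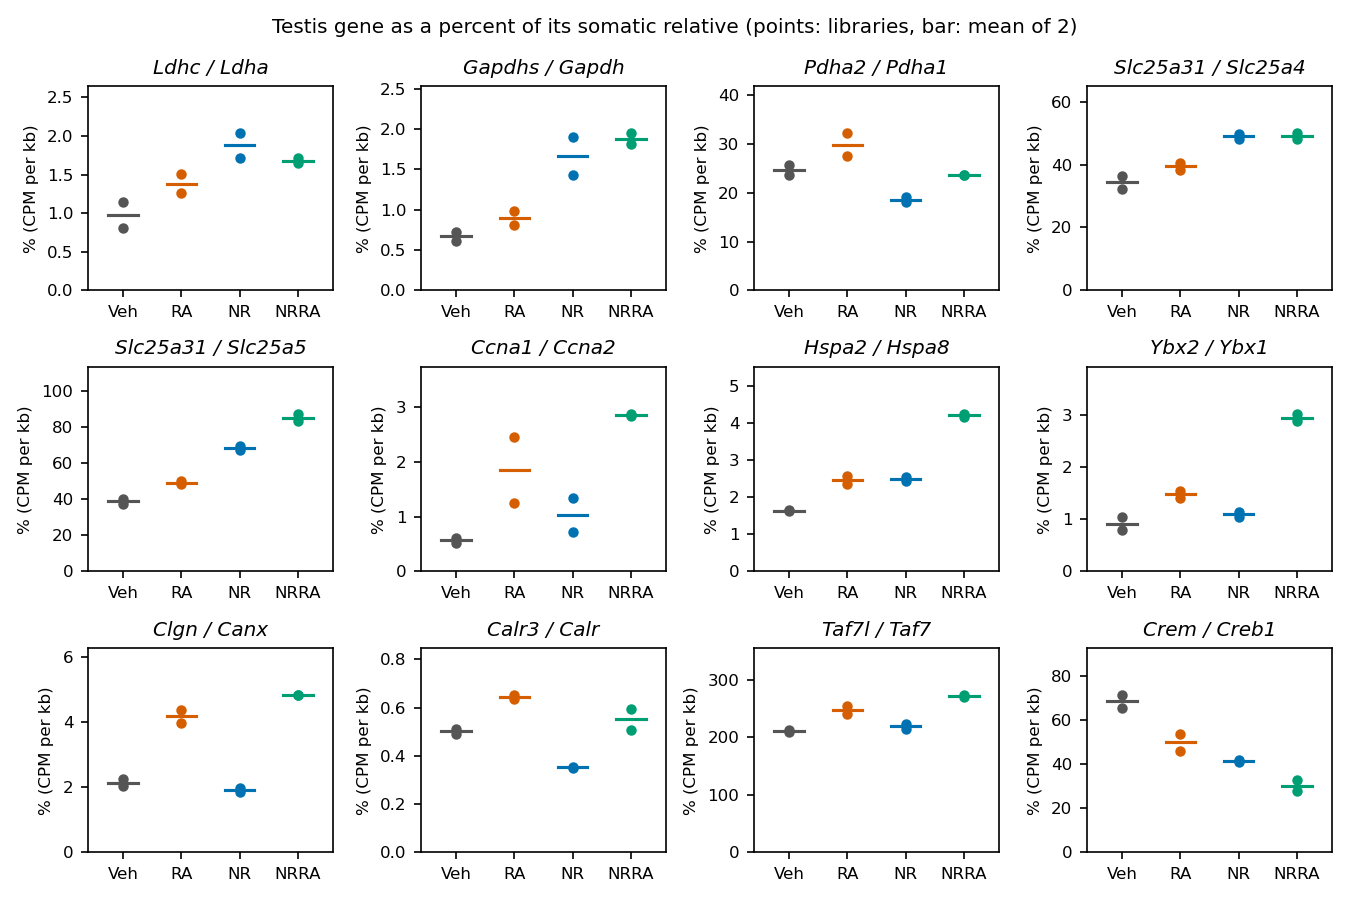
Level of each late gene as a percent of the level of its somatic relative, both in CPM per kb of exon, on linear axes from 0, with points for the 2 libraries of each treatment and a bar for their mean. In NRRA, Gapdhs reaches 1.88% of Gapdh and Slc25a31 85.3% of Slc25a5, against 0.671% and 38.8% in Veh, and Crem falls from 68.3% to 30.1% of Creb1.

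Regulators that act before or with these genes were examined from a separate list of 22, of which 21 were tested. Of these, 10 were higher and 3 lower in NRRA (all genes 30.1% and 28.7%), 9 and 4 in RA (all genes 19.8% and 23.4%), and 5 and 3 in NR (all genes 21.7% and 22.2%), where 23.8% higher is near the share of all genes. The median in NRRA was 0.31 on the log2 scale. *Fhl5*, the testis coactivator of CREM, had 0 and 1 counts with Veh, 1 and 1 with RA, 1 and 8 under NR and 44 and 50 under NRRA. With each group scaled by its library totals after TMM scaling, the ratio of NRRA to Veh was 62.6, from 94 counts against 1. Its exact 95% counting interval was 11.0 to 2498, and edgeR's quasi-likelihood test gave an adjusted p of 1.40e-07. *Nr6a1*, a germ cell nuclear receptor, was at 36.7 and 34.2 CPM with Veh, 86.1 and 82.0 with RA, 27.2 and 25.6 under NR and 80.5 and 81.2 under NRRA, and rose in NRRA by 1.19, SE 0.0595, adjusted p = 2.46e-15. *Rfx2*, a transcription factor of spermatid cilia genes, rose by 1.03, SE 0.155, adjusted p = 2.38e-06, with 73 and 67 counts with Veh, 119 and 227 with RA, 68 and 85 under NR and 216 and 214 under NRRA. For both genes the 4 libraries with retinoic acid were above the 4 without.

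A second list held 40 other haploid genes. Of these, 10 passed the filter for testing, and 5 of those were higher and 1 lower in NRRA (all genes 30.1% and 28.7%), 3 and 1 in RA (all genes 19.8% and 23.4%), and 2 and 0 in NR (all genes 21.7% and 22.2%). The 40 genes summed to 29.0 to 30.7 CPM with Veh, 32.1 to 32.7 with RA, 33.1 to 37.6 under NR and 34.1 to 35.5 under NRRA, so that NR and NRRA overlapped. *Spata16*, a Golgi protein of the forming acrosome, had 2 and 2 counts with Veh, 3 and 16 with RA, 2 and 4 under NR and 21 and 16 under NRRA (adjusted p in NRRA = 0.00198). *Zpbp2*, the paralogue of *Zpbp*, had 14 and 9 counts with Veh, 18 and 22 with RA, 12 and 19 under NR and 35 and 49 under NRRA and a log2 change in NRRA of 1.27, SE 0.341, adjusted p = 0.00228. *Catsper2*, a subunit of the sperm calcium channel, rose by 0.68, SE 0.163, adjusted p = 0.000831, with 62 and 57 counts with Veh, 72 and 113 with RA, 99 and 148 under NR and 137 and 149 under NRRA. These names were taken as the largest changes among those called.

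The 37 promoters of the 26 genes with a RefSeq entry were also read for the site that CREM binds (CRE, TGACGTCA) and for the site bound by STRA8 with its partner (CNCCTCAG), on both strands. The CRE was in 1 of 37 promoters (2.70%), that of *Izumo1*, beside 1.55% of all promoters. The shorter TGACG, which each CRE contains, was in 27.0% beside 17.8%. CNCCTCAG was in 3 promoters (8.11%, beside 6.42% of all), those of *Gapdhs*, *Tssk1* and *Ybx2*. The windows of 30 bases around every CRE and CNCCTCAG match, on the strand of the gene, are given with the match in capitals, for *Izumo1* (chr7:45621704-45621733), *Gapdhs* (chr7:30743693-30743722), *Tssk1* (chr16:17893994-17894023) and *Ybx2* (chr11:69936137-69936166):
Izumo1: ctgccaccctaTGACGTCAcgatgggatgg
Gapdhs: tgggagcttcaCACCTCAGtaacaccacgg
Tssk1: taagcctctctCACCTCAGgctggagccaa
Ybx2: gctgctgggacCCCCTCAGcgcccggccct
A match is a description of the letters, and binding was not measured here. The *Ybx2* match lies before the later of its RefSeq starts and inside the gene as placed above. Whether the matches relate to the changes with treatment was not tested. The *Crem* promoter was not in the table.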

How the data were processed

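Messenger RNA was captured on oligo dT beads from 1 ug of total RNA of 8 spermatogonial cultures, 2 for each of Veh, RA, NR and NRRA. The deposited values are raw counts of reads per gene made by the authors, whose processing notes name bcl2fastq, STAR 2.6.1c, featureCounts 1.6.4 and mm10. Whether the counting used strand is not given in the sources used here. The table holds 55421 genes, and 55240 of its gene IDs were found in GENCODE M21, which gave names, positions and exon lengths. Library totals ranged from 19261333 to 30023585 counts. No pair of libraries was a duplicate: the difference of the 2 libraries of a group gave a chi-square of 1.54 to 3.59 per gene, where sampling alone gives about 1.

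Counts were fitted with edgeR 4.0.16 (R 4.3.3, limma 3.58.1) as a quasi-likelihood model of the 4 groups over all 8 libraries, with TMM scaling and 4 residual degrees of freedom. The filter on low counts (filterByExpr by group) kept 20477 genes. P-values were adjusted by Benjamini-Hochberg over these genes, and a gene was called below 0.05. Standard errors were derived from the log2 fold change and its F value. The study's methods used DESeq2, which was run as an alternative (version 1.42.0). Fits were first tested on simulated data. Tables and plots were made with Python 3.11.15, pandas 2.3.3 and matplotlib 3.10.9.

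The 36 genes and all comparison lists (early meiosis, late regulators, other haploid genes, somatic relatives, and markers of germ, undifferentiated, differentiating, fibroblast, Sertoli, Leydig and ciliated cells) were chosen with earlier results of these data known. Every tested gene of the 36 was described, untested ones by their counts, and from each other list at most the 3 largest called changes in NRRA and the somatic relatives were named, besides the defining markers Amh, Fshr and Mcidas, which were at or near the floor and were chosen after their values were seen. Replicates were described as independent, but with 2 libraries a group the p-values rest on a spread shared by the 4 groups. Intervals and floors cover counting error only. Promoter sequences came from RefSeq (GRCm38.p6).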

Additional observations from a re-analysis of the deposited data

Results flagged for a closer look

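The effect of retinoic acid differed between nutrient restriction and complete medium for 5 of the 26 tested genes, by the interaction term of edgeR's quasi-likelihood test with Benjamini-Hochberg adjustment over all genes (all genes 6.37% positive and 6.58% negative). *Ybx2* (log2 0.85, SE 0.195, adjusted p = 0.00350) and *Clgn* (log2 0.40, SE 0.130, adjusted p = 0.0436) rose more with retinoic acid under nutrient restriction than without it. *Odf2* (log2 0.28, SE 0.0715, adjusted p = 0.00770) was lowered by retinoic acid in complete medium, by 0.32 on the log2 scale, and was not called between NRRA and NR. *Adad1* (log2 -0.57, SE 0.155, adjusted p = 0.0138) was lower in NRRA than in NR and did not pass between RA and Veh. *Izumo1* (log2 -1.08, SE 0.324, adjusted p = 0.0256) rose in RA and did not pass between NRRA and NR. Of the 5 values that of *Clgn* is the least firm, since it passed in 1 of 13 alternatives, the one with a replicate block.

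The *Ybx2* call was lost without Veh replicate 1 (0.58), and that of *Odf2* without NR replicate 1 (0.22) or NRRA replicate 2 (0.27). For *Adad1* the call was lost with DESeq2 (-0.59) and without RA replicate 1 (-0.51), NR replicate 1 (-0.49) or NRRA replicate 1 (-0.53). For *Izumo1* it was lost with DESeq2 and without Veh replicate 2 (-0.94), RA replicate 2 (-0.91), NR replicate 2 (-1.01) or NRRA replicate 1 (-0.91). Without Veh replicate 2 the interaction of *Taf7l* went from -0.16 to -0.30 and that of *Slc25a31* from -0.15 to -0.25, and both then passed.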

How the results depend on the processing

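No called change of a gene reversed its direction in any alternative. Of 2148 refitted values for single genes, 1936 kept their direction and their side of the threshold, 107 lost the call, 27 gained one, and 78 that were not called in either fit changed sign. DESeq2 called 3 genes higher in NR in place of 7, 3 higher and 2 lower in NRRA against RA in place of 5 and 4, 2 lower in NRRA against Veh and 1 lower in NRRA against NR in place of 4 each, and none negative for the interaction in place of 2. Library totals alone, which shift the median of all genes by 0.10 (RA) and 0.11 (NRRA) on the log2 scale, gave 12 higher in RA in place of 7 and 2 lower in NRRA in place of 4. With at least 2-fold required, 2 were higher and 0 lower in RA, 1 and 0 in NR, 3 and 0 in NRRA, 0 and 0 in NRRA against RA, 3 and 1 in NRRA against NR, and 0 positive and 1 negative for the interaction. With 1 library left out, which leaves a group of 1 assumed to vary like the others, 6 to 9 were higher and 1 to 2 lower in RA, 5 to 7 and 2 to 3 in NR, 8 to 10 and 2 to 5 in NRRA, 4 to 5 and 1 to 4 against RA, 5 to 8 and 2 to 5 against NR, and 1 to 2 and 0 to 3 for the interaction. The counts that moved by over 1.5 times were those lower in RA (2 without Veh 1) and in NRRA (2 without Veh 1 or NRRA 1), lower than RA (2 without RA 2, 1 without NRRA 1), higher than NR (5 without NR 2), lower than NR (2 without NRRA 2), and the interaction (1 positive without Veh 1, NR 1 or NRRA 2, 1 negative without RA 1, RA 2, NR 1 or NR 2, and 0 negative without NRRA 1). The cause was not tested. With a replicate block the counts higher and lower were 8 and 1 in RA, 7 and 3 in NR, 10 and 3 in NRRA, 5 and 4 against RA, 8 and 4 against NR, and 3 and 2 for the interaction. The deviations of like-numbered libraries correlated at -0.0334 to 0.0225, so no shift shared by replicate number was seen. These correlations cannot show whether like-numbered cultures had a common origin. At 1 CPM or more in 2 libraries 23 genes were detected, beside 26 that passed the filter. Depth limits the 10 untested genes, since 3 counts equal 0.0963 to 0.156 CPM.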
